A study of Mus musculus with 6 samples.

Results

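Translation initiation and elongation factors are the proteins that load ribosomes onto messenger RNA and move them along it. The set described here holds 42 mouse genes chosen by symbol, and every probe set (a group of short probes read as 1 value) annotated to exactly 1 of these symbols was taken. This gave 102 of the 45037 probe sets, for 37 of the 42 genes. For Eef1g 2 probe sets name another gene as well and were left out by this rule, and Eif1, Eif2s1, Eif3g and Eif4g1 were not analysed here.

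The values come from the liver of 6 male BALB/cCrSlc mice, an inbred albino strain, aged 17 weeks, with 1 Affymetrix 3′ expression array per mouse. Both groups ate a low-protein purified diet of the AIN-93M type for 10 weeks. The group 10C (n = 3) had 10% casein, and the group 6C+4CP (n = 3) had 6% casein with 4% collagen peptide from fish, so that lower casein and added peptide cannot be told apart. Mice were taken after 3 h without food, the 3 of each diet having been picked out of 12 for a medium ratio of weight gain to food eaten, and the comparison asks how the peptide diet relates to liver messenger RNA. In a piece of whole liver, fewer cells of a type and less RNA per cell cannot be told apart.

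Initiation starts with eIF2, which brings the initiator methionine transfer RNA to the small ribosomal subunit, while eIF2B recharges eIF2 with GTP. The large scaffold eIF3 and the cap-binding group eIF4 (the cap-binding protein eIF4E, the helicase eIF4A, the scaffold eIF4G and the helpers eIF4B and eIF4H) bring the subunit to the messenger RNA, and eIF5 and eIF5B complete start-site selection and subunit joining. The elongation factors eEF1 and eEF2 then deliver aminoacyl transfer RNA and translocate the ribosome. Amino acid supply is known to act on this machinery mostly through phosphorylation, of eIF2 by its kinases and of the 4E-binding proteins by the kinase mTOR, and an array of messenger RNA does not measure phosphorylation.

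No factor passed the test between the diets. In 21.1% of the factors' probe sets that vary between mice, the 3 mice of one diet did not overlap those of the other. Such probe sets are called apart, and their share was near the 19.9% of all varying probe sets. The genes in question were Eif4b (2 of 3 varying probe sets) and Eif5 (3 of 4), apart as higher in 6C+4CP. So were Eif4ebp2 (1 of 1) and Eif4g2 (1 of 2), and Eif3c was apart as lower in 1 of 4. The stretches of 250 bases before the annotated start of those among them that RefSeq's promoter table (build GRCm38.p6) holds are shown, since the values of these genes are described most fully. Capitals mark GC boxes (GGGCGG, the letters bound by Sp1-type factors) and ETS motifs (CCGGAAG) on either strand.
Eif4b (chr15:102073523-102073772, + strand): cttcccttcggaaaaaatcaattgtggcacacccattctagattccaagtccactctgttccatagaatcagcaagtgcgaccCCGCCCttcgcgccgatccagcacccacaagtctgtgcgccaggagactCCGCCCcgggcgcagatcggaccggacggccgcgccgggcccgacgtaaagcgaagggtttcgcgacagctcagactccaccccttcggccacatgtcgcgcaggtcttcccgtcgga
Eif5 (chr12:111537851-111538100, + strand): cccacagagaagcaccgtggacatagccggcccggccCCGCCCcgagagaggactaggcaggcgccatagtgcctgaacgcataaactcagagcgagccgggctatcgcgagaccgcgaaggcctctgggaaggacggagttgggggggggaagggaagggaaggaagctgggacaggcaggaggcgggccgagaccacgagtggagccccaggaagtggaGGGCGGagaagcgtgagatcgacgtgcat
Eif4ebp2 (chr10:61452670-61452919, - strand): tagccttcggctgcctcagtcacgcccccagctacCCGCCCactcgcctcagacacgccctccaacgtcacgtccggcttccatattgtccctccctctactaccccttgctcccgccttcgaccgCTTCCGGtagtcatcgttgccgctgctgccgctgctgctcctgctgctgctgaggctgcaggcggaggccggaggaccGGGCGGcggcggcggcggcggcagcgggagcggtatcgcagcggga
Eif3c (chr7:126566367-126566616, - strand): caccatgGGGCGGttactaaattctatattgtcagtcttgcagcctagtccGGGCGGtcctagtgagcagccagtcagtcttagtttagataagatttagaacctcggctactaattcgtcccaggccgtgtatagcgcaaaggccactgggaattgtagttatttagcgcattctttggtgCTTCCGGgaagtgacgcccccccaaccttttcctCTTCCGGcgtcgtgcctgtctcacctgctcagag

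Each of these 4 stretches held 2 GC boxes, Eif3c held 2 ETS motifs and Eif4ebp2 held 1. None held the E-box CACGTG, the cyclic AMP element TGACGTCA, the amino acid response letters TGATGNAA or CCAAT in these 250 bases. The table had windows of 300 bases (250 before and 50 after the start) for 33 of the 42 members, 42 windows in all. The GC box occurred in 26 of the 42 (61.9%), against 35.7% of all 32851 windows, and the ETS motif in 11 (26.2%, against 8.86%). CACGTG occurred in 13 (31%, against 7.15%), among them windows of Eif3f, Eif4a1, Eif4e and Eef2. The other letters searched were in 1 window (TGACGTCA, in Eef2, against 1.79% of all), 1 window (TGATGNAA, in Eef2k, against 3.97%) and 11 windows (CCAAT, 26.2% against 37.4%). Some windows belong to the same gene and overlap, the motifs were chosen with the sequences in view, and member windows were richer in G and C (median 61.8%, against 52.4% of all), so these shares are descriptions only.

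The deposited values are on a log2-like scale, and many probe sets carry practically 1 value for all mice. Of the 102 probe sets of the factors, 38 ranged over more than 0.01 across the arrays (37.3%), against 7791 of 45037 (17.3%) in the whole table. Among the brightest 25% of all probe sets 47% varied, and of the 70 factor probe sets there 36 did (51.4%). No factor probe set was near the mark of 0.01, since the widest range below it was 0.00089 and the narrowest above it 0.107. A probe set whose values do not vary shows nothing on whether its messenger RNA differed.

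That limit fell unevenly on the genes. The bar plot of varying shares counts probe sets by group, not genes. At least 1 probe set varied for 20 genes and none did for 17. The latter were Eif1b, Eif2b1, Eif2b2, Eif2b3, Eif2b5, Eif3b, Eif3f, Eif3h, Eif3k, Eif3l, Eif4g3, Eif4h, Eif5b, Eif6, Eef1a1, Eef1b2 and Eef1d. Eef1a1, the carrier of aminoacyl transfer RNA, stood at 13.07 on every array, and the 6 probe sets of Eif4h, a helper of the eIF4A helicase, and the 4 of Eif4g3 all held fixed values.

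**Figure D1:**
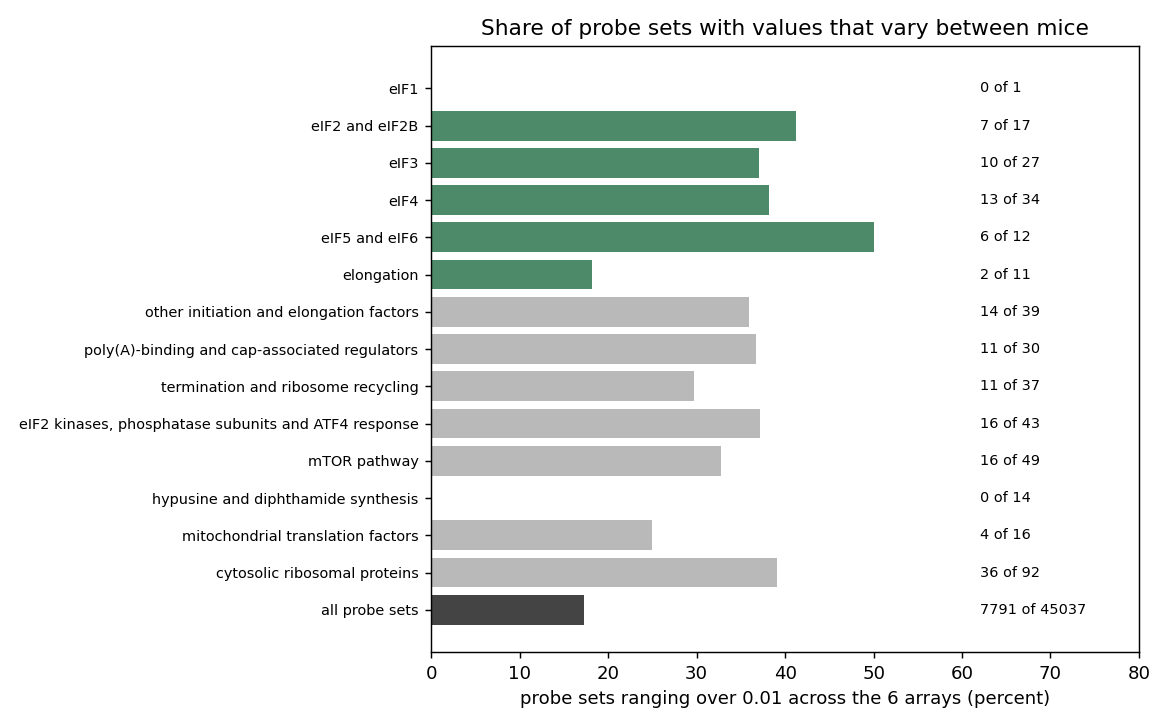
The bars give the percent of probe sets ranging over 0.01 across the 6 arrays, for the 6 groups of factors (green), other translation lists (grey) and all 45037 probe sets (dark), with counts at the right. The share ran from 0 of 1 in eIF1 and 2 of 11 in elongation to 6 of 12 in eIF5 and eIF6, against 17.3% overall.

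Between the diets, limma with Benjamini-Hochberg adjustment called 0 of the 102 factor probe sets at an adjusted p under 0.05 over all probe sets, where 0.149% of the table was called as higher and 0.0933% as lower, nearly all of it in probe sets of fixed value (103 of 109). Unadjusted, 14 of the 102 had p under 0.05 (6.42% of all probe sets did), 7 of them among the 38 varying ones (13.1% of all varying probe sets). A fit to the 7791 varying probe sets alone also called 0 of the factors' probe sets, and 0% of all 7791. In this fit 8 of the 38 varying probe sets had an unadjusted p under 0.05. Of the 38, 7 were so as higher, where 8.28% of all varying probe sets were, and 1 as lower, where 6.35% were. Values of 3 mice did not overlap those of the other 3 in the same 8, 7 as higher and 1 as lower, against 10.8% and 9.11% of all varying probe sets. The joint share, 21.1%, was near the 19.9% of all varying probe sets. The split by direction was less alike. It was 7 higher (from 4 genes) and 1 lower here, against 842 higher and 710 lower among all varying probe sets. Without 10C replicate 3 the count was 17 (9 higher and 8 lower, 44.7% against 37.7% in all varying probe sets), and with only the brightest probe set of each gene it was 4 of 18, all higher (22.2%, against 19.9%). Without 6C+4CP replicate 2 the share was 23.7%, under the 32.9% of all varying probe sets.

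Over the 38 varying probe sets 23 had a higher and 15 a lower mean in 6C+4CP, against 3729 and 4062 of all varying probe sets. The median difference (6C+4CP minus 10C, log2 scale) was 0.025, against -0.0040 over all varying probe sets. Differences ran from -0.28 to 0.58, and 18 of the 38 were under 0.1 in size. The median was -0.049 for eIF2 and eIF2B (7 probe sets), -0.00014 for eIF3 (10), 0.081 for eIF4 (13), 0.11 for eIF5 and eIF6 (6) and -0.083 for elongation (2). Of the 6 for eIF5 and eIF6, 4 were of Eif5, and of the 13 for eIF4, 3 were of Eif4b. Each mouse's median deviation over the 38 had an SD of 0.051 within diets, so these medians are descriptions only.

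**Figure D2:**
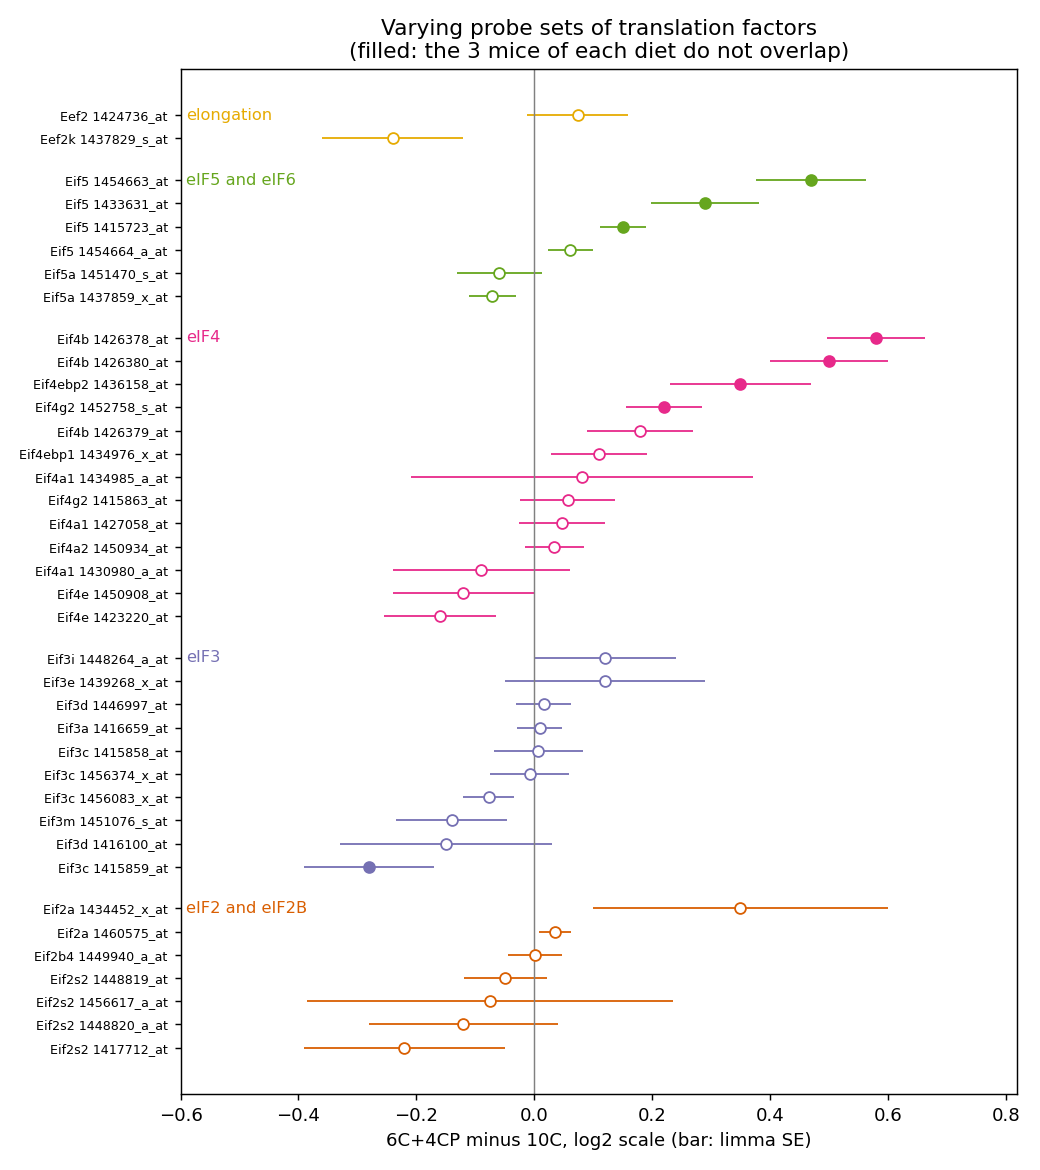
Each point is the difference 6C+4CP minus 10C of a varying probe set on the log2 scale, with its limma SE, grouped by factor complex, and filled points mark probe sets in which the mice of the diets did not overlap. The 7 filled points to the right of 0 belong to Eif4b, Eif5, Eif4ebp2 and Eif4g2, and the 1 to the left to Eif3c.

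Within eIF4 the widest gap was that of Eif4b, which stimulates the eIF4A helicase and is itself a phosphorylation target of the mTOR branch. Its probe set 1426378_at read 8.80, 8.52 and 8.71 with 10C and 9.31, 9.26 and 9.22 with 6C+4CP. Every 6C+4CP mouse was above every 10C mouse, with 8.68 ± 0.14 (SD, n = 3) against 9.26 ± 0.041, a difference of 0.58 (SE 0.083) or 1.5 times. Limma gave an adjusted p of 0.328 over all probe sets and 0.101 among varying ones, with 0.0773 to 0.843 over its 13 alternatives. Its probe set 1426380_at read 9.35, 9.02 and 9.29 in 10C and 9.71, 9.77 and 9.68 in 6C+4CP, again without overlap, a difference of 0.50 (SE 0.10; limma adjusted p = 0.533, with 0.108 to 1 over 14 alternatives). The third, 1426379_at, read 7.99, 7.93 and 8.19 against 8.13, 8.28 and 8.23, with 10C replicate 3 inside the range of the other diet and a difference of 0.18 (SE 0.090). All 3 probe sets of the gene thus had the higher mean in 6C+4CP, and 2 of 3 did not overlap.

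Eif4ebp2 encodes a 4E-binding protein, which holds eIF4E away from eIF4G until mTOR phosphorylates it. Its 1 varying probe set of 5 read 8.56, 8.26 and 8.64 in 10C and 8.87, 8.77 and 8.86 in 6C+4CP. The diets did not overlap, and the 6C+4CP mice lay closer together than the 10C mice (SD 0.057 against 0.20). The difference was 0.35 (SE 0.12), with a limma adjusted p of 0.704 (0.225 to 1 over 14 alternatives). Eif4ebp1, the paralogue that ATF4 is known to induce, had 1 varying probe set of 3, with 8.39, 8.68 and 8.51 in 10C and 8.61, 8.63 and 8.65 in 6C+4CP. There 10C replicate 2 was the highest of all mice, so the diets overlapped (difference 0.11, SE 0.082).

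Eif4g2, also called DAP5, is a relative of the eIF4G scaffold that lacks the eIF4E-binding part. Its probe set 1452758_s_at read 11.28, 11.25 and 11.14 in 10C and 11.35, 11.51 and 11.46 in 6C+4CP, without overlap (difference 0.22, SE 0.064, limma adjusted p = 0.648, with 0.226 to 1 over 14 alternatives). The suffix _s marks probes shared by several transcripts. The gene's other varying probe set read 10.87, 10.68 and 10.63 against 10.84, 10.81 and 10.71, where the highest mouse was from 10C (difference 0.057, SE 0.081). The higher values of Eif4g2 thus rest on 1 of its 2 varying probe sets.

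The cap-binding protein itself, Eif4e, had the lower mean in 6C+4CP in both of its varying probe sets, by -0.12 (SE 0.12) and -0.16 (SE 0.095), with overlap in each. The helicase Eif4a1 went both ways over its 3 varying probe sets, with 0.048, -0.090 and 0.081, and 10C replicate 3 was low in the last of these (9.49, against 9.95 to 10.44 in the other mice). Eif4a2, its close paralogue, differed by 0.034 (SE 0.050) in its 1 probe set. Of the eIF4 members 7 of the 9 measured could be compared in this way. In 10 of their 13 varying probe sets the mean was higher in 6C+4CP, against 3729 of all 7791 varying probe sets. Several of the 10 repeat a gene, with 3 of Eif4b, 2 of Eif4g2 and 2 of Eif4a1.

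**Figure D3:**
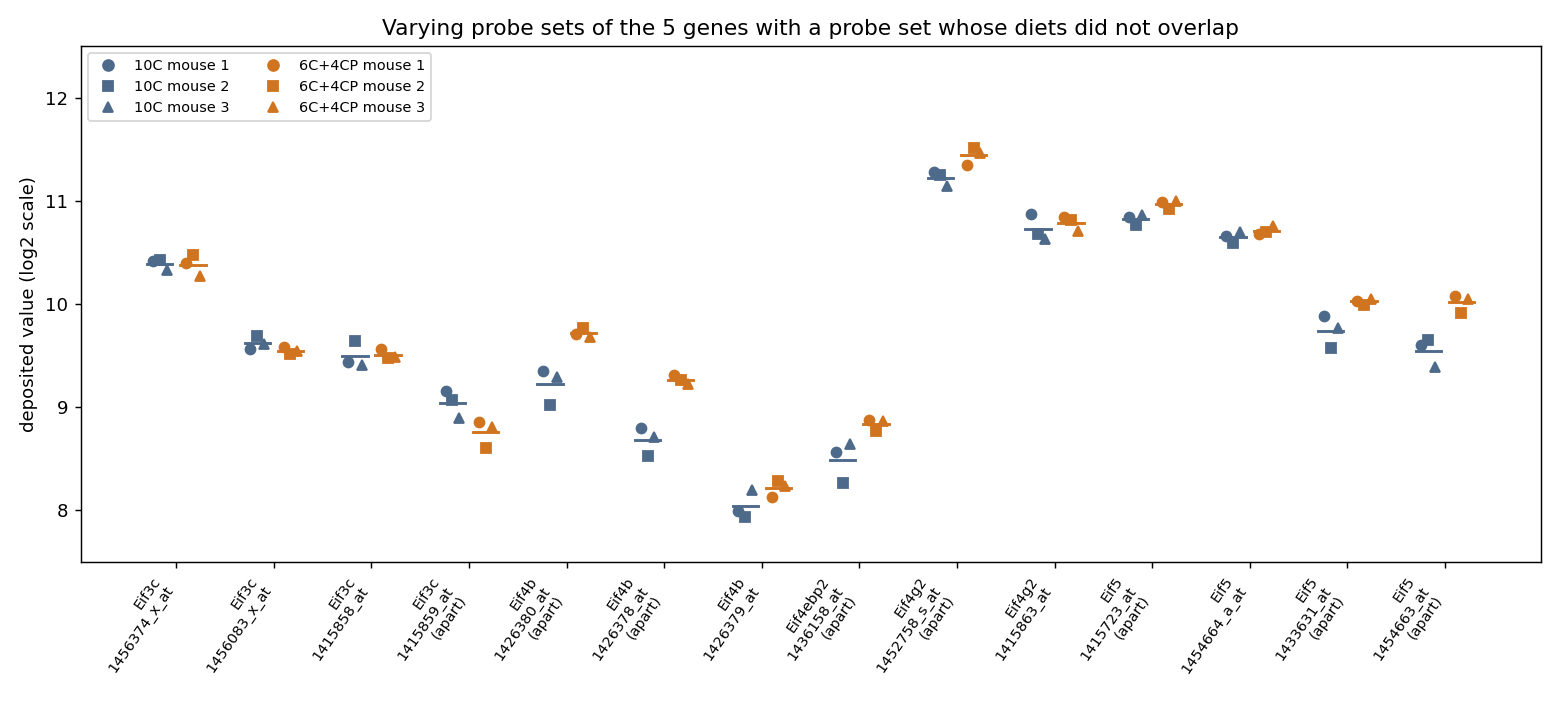
Points give the deposited value on the log2 scale for each of the 3 mice per diet (10C blue, 6C+4CP orange, shape for the mouse) and bars the diet mean, in every varying probe set of Eif3c, Eif4b, Eif4ebp2, Eif4g2 and Eif5. Probe sets marked apart show no overlap, among them 2 of 3 for Eif4b, 3 of 4 for Eif5 and 1 of 4 for Eif3c.

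Eif5 encodes the GTPase-activating protein of eIF2, which is needed when the start codon is found. Its probe set 1454663_at read 9.60, 9.65 and 9.39 in 10C and 10.08, 9.91 and 10.05 in 6C+4CP. The diets were apart, with 9.55 ± 0.14 (SD, n = 3) against 10.02 ± 0.090, a difference of 0.47 (SE 0.093) or 1.38 times. Limma's adjusted p was 0.506 over all probe sets and 0.128 among varying ones, with 0.108 to 0.847 over 13 alternatives. Further probe sets, 1433631_at with 9.88, 9.57 and 9.77 against 10.03, 9.99 and 10.05, and 1415723_at with 10.84, 10.76 and 10.86 against 10.99, 10.92 and 11.00, were apart in the same direction by 0.29 (SE 0.092) and 0.15 (SE 0.039). In 1454664_a_at the diets overlapped (10.66, 10.59 and 10.70 against 10.68, 10.70 and 10.75; difference 0.061), and the gene's remaining probe set held a fixed value. Eif5 was thus higher in 4 of 4 varying probe sets, by amounts from 0.061 to 0.47.

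Eif5a, the hypusine-bearing factor that helps ribosomes past stretches such as polyproline, had the lower mean in 6C+4CP in both varying probe sets, with overlap. The brighter read 10.98, 11.08 and 10.96 in 10C and 10.92, 10.85 and 11.07 in 6C+4CP (difference -0.059, SE 0.072; -0.0108 with 6C+4CP replicate 2 left out and -0.12 with replicate 3 of that diet left out), and the other differed by -0.071 (SE 0.040). The enzymes that make hypusine and diphthamide, 8 genes with 14 probe sets, all held fixed values.

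The scaffold eIF3 showed no common direction, with 5 varying probe sets higher and 5 lower over 6 genes. Eif3c, a core subunit, had 4 varying probe sets that disagreed. In 1415859_at the 10C mice read 9.15, 9.07 and 8.89 and the 6C+4CP ones 8.85, 8.60 and 8.81, lower without overlap (difference -0.28, SE 0.11, limma adjusted p = 0.704, with 0.271 to 1 over 13 alternatives). The other 3 overlapped and differed by -0.0074, -0.077 and 0.0071. Eif3c was therefore apart as lower in 1 probe set of 4.

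For Eif3d and Eif3m the gap rested largely on 1 mouse. Eif3d, a subunit with cap-binding activity of its own, read 8.79, 9.13 and 8.52 in 10C and 8.70, 8.70 and 8.58 in 6C+4CP. Its difference of -0.15 (SE 0.18) was 0.01 without 10C replicate 2, the highest mouse. Its other varying probe set went the other way, by 0.016 (SE 0.046). Eif3m, another subunit, read 8.64, 8.81 and 8.52 against 8.55, 8.44 and 8.58 (difference -0.14, SE 0.094), and was -0.06 without that mouse. Eif3e and Eif3i each differed by 0.12 (SE 0.17 and 0.12) and Eif3a, the largest subunit, by 0.0091 (SE 0.038), all with overlap.

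For eIF2 and eIF2B, 7 probe sets of 3 genes varied, and in none of them were the diets apart. Eif2s2, the beta subunit of eIF2, had the lower mean in 4 of 4 varying probe sets. The brightest read 10.50, 10.38 and 9.99 in 10C and 10.21, 9.98 and 10.01 in 6C+4CP, so that 10C replicate 3 lay with the other diet (difference -0.22, SE 0.17; -0.37 without that mouse and -0.12 without 10C replicate 1). Eif2a, which despite its symbol is not the alpha subunit of eIF2 but a separate initiator transfer RNA carrier, read 7.79, 7.76 and 7.72 against 7.83, 7.77 and 7.78 in its brighter varying probe set (0.036, SE 0.027; 0.02 to 0.05 with an array left out). Its probe set 1434452_x_at, where _x marks probes that can match other transcripts, differed by 0.35 (SE 0.25) with 10C replicate 3 at 6.69 and the other mice from 7.29 to 7.63. Eif2b4, the delta subunit of the exchange factor eIF2B, differed by 0.0017 (SE 0.046).

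Elongation factors gave 2 varying probe sets, which went opposite ways. Eef2, the translocase, read 10.74, 10.90 and 10.95 in 10C and 10.89, 11.06 and 10.87 in 6C+4CP, with overlap. The difference of 0.074 (SE 0.086) was 0.012 with 10C replicate 1 left out and 0.0138 with 6C+4CP replicate 2 left out. Eef2k, the kinase that inhibits eEF2, read 6.72, 6.87 and 6.58 against 6.66, 6.41 and 6.38. There 6C+4CP replicates 2 and 3 were below all 10C mice and replicate 1 was not (difference -0.24, SE 0.12, limma adjusted p = 0.704, with 0.371 to 1 over 14 alternatives).

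Single mice of the 10C diet stood out. Over the 38 varying factor probe sets, 10C replicate 3 had the lowest value in 14 (36.8%, against 25.9% of all varying probe sets) and 10C replicate 2 the highest in 13 (34.2%, against 26.2%). The same 10C replicate 2 was the lowest of all mice in the 3 probe sets of Eif4b, in Eif4ebp2 and in 3 of the 4 of Eif5. That mouse had a value of 14.03 for the acute phase gene Saa1, against 7.54 to 9.13 in the others. Without it the differences were 0.51 and 0.40 for the separated probe sets of Eif4b, 0.23 for Eif4ebp2, 0.23 for Eif4g2 and 0.52, 0.20 and 0.12 for those of Eif5. The closest match of 10C replicate 3 over all varying probe sets was 6C+4CP replicate 2 (r = 0.985, over probe sets, which are not replicates), ahead of the mice of its own diet (0.971 and 0.973). Without 10C replicate 3 the same differences were 0.60 and 0.53 for Eif4b, 0.42 for Eif4ebp2, 0.18 for Eif4g2 and 0.39, 0.30 and 0.17 for Eif5.

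**Figure D4:**
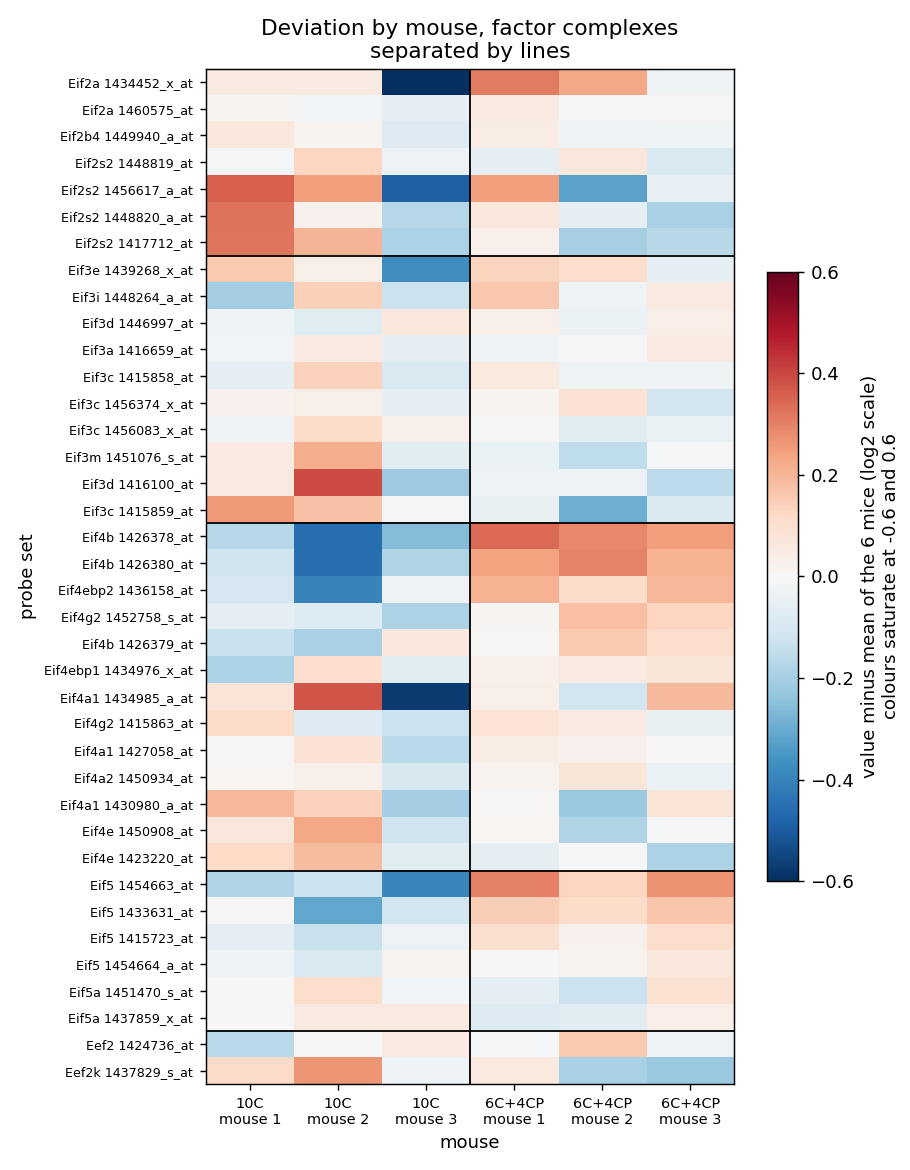
Colours give each mouse's value minus the mean of the 6 mice (log2 scale, saturating at -0.6 and 0.6) for the 38 varying probe sets, with lines between eIF2 with eIF2B, eIF3, eIF4, eIF5 with eIF6, and elongation. The 2 separated probe sets of Eif4b are blue in all 10C mice and red in all 6C+4CP mice, while 10C replicate 3 is the lowest mouse in 14 rows.

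Other parts of the translation pathway were read from lists of related genes, counting the brightest varying probe set of a gene. Limma called 0 probe sets in all 8 of these lists, over all probe sets and over varying ones. Over all probe sets 0 to 6 a list had an unadjusted limma p under 0.05, fixed ones included. The counts were highest in the list of eIF2 kinases, phosphatase subunits and the ATF4 response (6 of 43). Ribosomal proteins followed (3 of 92), against 6.42% of all probe sets. Among other initiation and elongation factors 10 of 19 measured genes varied, 3 higher and 7 lower, with a median of -0.0055. Eif2d was apart as higher (0.029, SE 0.0087, but 0.03 in the fit to varying probe sets). By probe set 2 of 14 were apart in this list (14.3%, against 19.9% of all varying probe sets). Of the poly(A)-binding and cap-associated regulators 9 of 12 varied, 5 higher and 4 lower (median 0.051). Paip1, which links poly(A)-binding protein to eIF4A and eIF3, read 7.77, 7.79 and 7.60 in 10C and 8.02, 8.14 and 8.10 in 6C+4CP, apart by 0.37 (SE 0.068, limma adjusted p = 0.501, and 0.123 among varying probe sets). It was the 1 gene of this list whose diets did not overlap. By probe set 1 of 11 was apart there (9.09%, against 19.9% of all varying probe sets).

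Regulators of eIF2 phosphorylation were mixed. In the list of eIF2 kinases, phosphatase subunits and the ATF4 response 9 of 18 genes varied, 6 higher and 3 lower (median 0.074). Over its 16 varying probe sets 8 were higher and 8 lower (median 0.0090), and 8 were apart (50%, against 19.9% of all varying probe sets), 3 as higher and 5 as lower. By gene, 3 were apart as higher and 1 as lower. Dnajc3, which inhibits the eIF2 kinases PERK and PKR and is also a chaperone of the endoplasmic reticulum, was lower by -0.80 (SE 0.11) without overlap. Ppp1r15b, which directs a phosphatase to eIF2, read 9.58, 9.35 and 9.45 in 10C and 9.60, 9.68 and 9.73 in 6C+4CP, higher by 0.21 (SE 0.075). Atf4, the transcription factor whose translation rises when eIF2 is phosphorylated, was apart as higher by 0.16 (SE 0.063), and Ddit3, known as CHOP, by 0.074 (SE 0.027). None of the 4 passed limma (adjusted p from 0.317 to 0.704), and 6 of the list's 16 varying probe sets had an unadjusted p under 0.05 in the fit to varying probe sets (37.5%, against 14.6% of all).

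In the mTOR list 11 of 20 measured genes varied, 5 higher and 6 lower (median -0.017; 0.025 over its 16 varying probe sets). There 3 genes were apart, 2 as higher and 1 as lower, and by probe set 3 of 16 (18.8%, against 19.9% of all varying probe sets). Mtor, the kinase, was apart as higher by 0.17 (SE 0.065), and Rptor, its partner raptor in complex 1, as lower by -0.23 (SE 0.091), with 7.49, 7.76 and 7.74 in 10C and 7.45, 7.47 and 7.39 in 6C+4CP. Rragc, a Rag GTPase that carries the amino acid signal to mTOR, was apart as higher by 0.089 (SE 0.045). Of 43 measured cytosolic ribosomal protein genes 21 varied, 5 higher and 16 lower, by small amounts (median -0.026). The 2 apart were Rpl7 by -0.035 (SE 0.0093) and Rplp0 by -0.077 (SE 0.024). In the fit to varying probe sets these SEs were 0.03 and 0.036. In that fit 0 of the list's 36 varying probe sets had an unadjusted p under 0.05 (14.6% of all did). By probe set 3 of 36 were apart (8.33%, against 19.9% of all varying probe sets). Termination and recycling factors (6 of 10 varied, 1 higher and 5 lower, 0 apart) and mitochondrial translation factors (3 of 9 varied, 0 higher and 3 lower, 1 apart) completed the lists. By probe set 0 of 11 were apart in the former, and 2 of 4 in the latter (50%, against 19.9% of all varying probe sets).

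Of the liver genes, Apoa1 ran from 13.67 to 13.82 and Ttr from 13.87 to 13.93 over the mice, while the probe set of Alb held a fixed value, which shows nothing of single mice. Apoa1 was apart as lower in 6C+4CP (-0.11, SE 0.024) and Ttr as higher (0.032, SE 0.012). In the fit to varying probe sets these SEs were 0.036 and 0.031. For 10 marker lists, 2 to the power of the value was summed over the genes in each mouse. The hepatocyte list (8 of 10 genes varied) ran from 111000 to 112000 in 10C and from 106000 to 109000 in 6C+4CP, and the B cell list (2 of 5) from 724 to 926 and from 630 to 661. The Kupffer cell and macrophage list (9 of 12) ran from 3030 to 4190 and from 2670 to 3750, the pancreatic acinar list (2 of 6) from 1080 to 1330 and from 971 to 1250, and the erythroid list (1 of 3) from 889 to 950 and from 943 to 1030. Ranges of the sinusoidal endothelium (2650 to 2820, and 2760 to 2800), stellate (3840 to 4170, and 3900 to 3910) and T or NK cell lists (590 to 596, and 586 to 594) overlapped, and no cholangiocyte or neutrophil marker varied. The Kupffer cell, acinar and erythroid ranges overlapped too, while the sums of the hepatocyte and B cell lists were lower in 6C+4CP without overlap. The single genes of these 2 lists were mixed. Of the varying hepatocyte markers 3 had the higher mean in 6C+4CP and 5 the lower. Of the B cell markers 1 was higher and 1 lower, with differences of 0.05 and -0.66. The part of these lists in the differences of the factors was not tested.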

How the data were processed

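Liver RNA of 6 mice was read on 1 Affymetrix 3′ array each, and arrays were grouped by their titles. The authors deposited 1 value per probe set and array, here taken as log2 from its range (4.76 to 14.48; array medians 6.306 to 6.308). R 2.7.2 is named per the submitters' processing notes. How probes were summarised, any background step and the base of the logarithm were not given in the sources used here. Control probe sets (64) were left out, leaving 45037. GEO's platform annotation gave 1 symbol for 34945 of them, and all 102 probe sets of the factors matched a RefSeq gene table through Entrez identifiers.

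The test was limma 3.58.1 (R 4.3.3; lmFit, then eBayes, on all 6 arrays without covariates), with Benjamini-Hochberg adjustment over all probe sets, and again over the 7791 ranging over 0.01. A ratio is 2 to the power of the difference. SEs are those of the fit over all probe sets, unless the fit to varying ones is named. The number of arrays limits the precision, and values have no detection calls. Named were the called members, the 2 varying members of each complex with the largest difference and all members without overlap, with up to 4 genes of each pathway list by p. Eif2a probe set 1434452_x_at and other probe sets of named genes, Saa1 and the motifs were added after values were seen. The members and lists were chosen with earlier results of these data known. Alternatives were the replicate block, leaving out each array, quantile normalization, median centring, brighter or varying probe sets, a range over 0.1, an intensity trend, adjusted p under 0.1 and 1 probe set per gene. Leaving out probe sets marked _x or _s, and varying probe sets without each array or with the block, were chosen after seeing the data.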

Additional observations from a re-analysis of the deposited data

How the results depend on the processing

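The count of 0 called factor probe sets was also 0 under every alternative run except with 10C replicate 3 or 6C+4CP replicate 2 left out, so that it ran from 0 to 1 when an array was left out. The call was a probe set of Eif2b5 or of Eif4g3 whose values are fixed. The replicate block gave 0 calls over all and over varying probe sets; with 3 mice a diet it leaves each difference, and so the median of 0.025, as it was. Same-numbered mice correlated in their deviations from the diet mean by 0.48, -0.09 and 0.08, and differently numbered ones by -0.57 to 0.4. Deviations within a diet sum to 0, which ties these correlations together, so they cannot decide whether the numbers pair the mice. The 8 probe sets without overlap were 4 with 1 probe set per gene, and from 9 to 17 when an array was left out, which by construction makes overlap rarer (27.1% to 37.7% of all varying probe sets were then apart). Of those 17 without 10C replicate 3, 8 were lower. The median difference was -0.027 without that mouse, and ran up to 0.036 without other arrays. Of the 7 named probe sets whose diets overlapped, 1 changed direction when an array was left out, that of Eif3d without 10C replicate 2. It ran from -0.298 to 0.00526 with an array left out, and the cause was not tested. Such changes were not particular to Eif3d. Among other overlapping probe sets, Eif4a1 1434985_a_at ran from -0.18 to 0.29 and Eif3e from -0.03 to 0.23. The number of arrays, 3 a diet, limits the precision, and signal over background was not analysed here.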
